A study of Sus scrofa with 6 samples.

Results

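The citrate cycle oxidises acetyl groups in the mitochondrial matrix, and pyruvate enters it either as acetyl-CoA or, after carboxylation, as oxaloacetate. Described here are 9 genes of the cycle and of pyruvate entry, PDHB, PC, IDH2, IDH3B, SDHA, SDHB, SDHD, FH and MDH1, in IPEC-1 and IPEC-J2, intestinal epithelial cell lines of the pig. MDH1 encodes the cytosolic malate dehydrogenase, while that of the cycle itself, MDH2, is no member. The 9 genes were taken by name, with every probe set that carries 1 of these symbols and no other, which gave 11 of the 23999 probe sets left after the controls were removed. SDHA and SDHB have 2 probe sets each and the other genes 1. Both lines arose by spontaneous immortalisation from newborn pig intestine. They were untreated and were grown as polarised monolayers on membrane inserts in the same medium with serum, insulin, transferrin, selenium and epidermal growth factor. The labels give 7 days of culture on the inserts and the paper a longer time. RNA of 3 cultures of each line was measured, on 6 Affymetrix Porcine Genome Arrays with 500 ng each, and the methods call the cultures independent experiments. Each line is a single line, so a difference between them is a difference between these 2 lines and their cultures.

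In the cycle, citrate is turned into isocitrate, and isocitrate dehydrogenases form 2-oxoglutarate from it. The 2-oxoglutarate dehydrogenase and succinyl-CoA synthetase then lead to succinate, which succinate dehydrogenase, also complex II of the respiratory chain, oxidises to fumarate. Fumarase makes malate of it, and malate dehydrogenase closes the circle at oxaloacetate. Enterocytes of the small intestine feed the cycle largely with glutamine in addition to glucose.

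Signals are log2 values per probe set with a floor of exactly 4 on every array, the log2 of 16. A difference is the mean of IPEC-J2 minus the mean of IPEC-1 on this scale, and a fold is its antilog. Differences were tested with limma over the 16322 probe sets above the floor on at least 1 array, with Benjamini-Hochberg adjustment and a threshold of 0.05. The error behind each limma p-value joins the spread among 3 arrays a line with a prior variance from all probe sets in the fit. The prior has 1.44 degrees of freedom beside 4 residual ones. Between 40.5 and 48.3% of the probe sets of an array lay at the floor, most on IPEC-J2 replicate 1, whose 75th percentile was 8.31 against 8.51 to 8.56 on the other arrays. Of the epithelial markers, 11 of 12 had a value and each of these was above the floor on at least 1 array. Their summed linear signal above the floor was 37007 to 38770 in IPEC-1 against 48366 to 54530 in IPEC-J2. VIL1, villin of the brush border, carries this rise, with 8.45, 4 and 8.53 in IPEC-1 against 13.83, 14.04 and 13.81 in IPEC-J2, and without it the sums were 36653 to 38437 and 34020 to 37701. The paper states that VIL1 was missing from the array and gives its RNA by qPCR, while the annotation used here names 1 probe set VIL1. Of the 11, VIL1, CLDN3 and CLDN7 were higher in IPEC-J2 and KRT19 was lower (difference -0.80). Of 7 fibroblast markers, COL3A1, DCN, LUM and FAP had no array above the floor, but the sum was 70.1 to 79.8 in IPEC-1 against 715 to 932 in IPEC-J2. THY1, with every IPEC-1 array at the floor and signals between 9.38 and 9.82 in IPEC-J2, carries this rise, and without it the sums were 70.1 to 79.8 and 41.7 to 64.7. Of 5 leukocyte markers, PTPRC, CD4 and ITGAM had no array above the floor, and the sum was 32.5 to 54.0 in IPEC-1 against 0 to 10.6 in IPEC-J2. CD3E alone makes the IPEC-1 sum, with 5.60, 6.13 and 6.05 there and every IPEC-J2 array at the floor. It was called lower in IPEC-J2 (difference -1.93, adjusted p = 0.00104 among the genes). The IPEC-J2 sum comes from CD14 on replicate 3 alone. The part of these markers in the results below was not tested.

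The enzymes did not move together. Of the 11 probe sets, 5 were lower in IPEC-J2 (PC, IDH2, FH, MDH1 and 1 of SDHA), 3 were higher (IDH3B, SDHD and 1 of SDHB) and 3 did not pass. That is 8 of 11 called, where 19.0% of all probe sets in the fit were called, 8.79% higher and 10.2% lower, and 22.2% of those above the floor on all 6 arrays. The arrays of the lines did not overlap in 9 of the 11, where this held for 41.3% of all probe sets. The median difference was -0.58 over the 11 and -0.07 over all probe sets, and the median size of a difference 0.58 and 0.46. The members were chosen with earlier results of these data known. Their counts and medians, here and per gene below, therefore do not stand for the pathway as a whole. The signals of the members lay between 6.61 and 12.78, away from the floor on every array. Their SD over the 3 arrays of a line ranged from 0.01 to 0.41, with a median of 0.17 in IPEC-1 and 0.10 in IPEC-J2, where all probe sets had 0.19 and 0.22. With arrays centred on their 75th percentile, 2 were higher and 6 lower, as PDHB passed (0.0401) and IDH3B did not (0.0589).

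**Figure D1:**
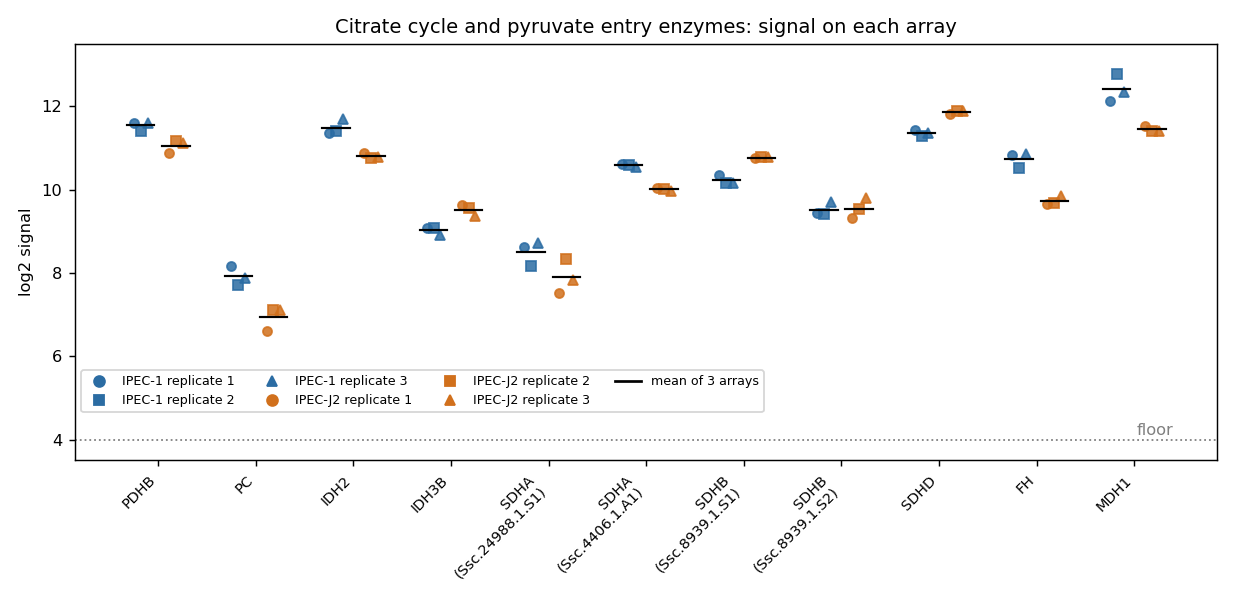
Log2 signal of the 11 probe sets (horizontal axis, by gene) on each of the 6 arrays, with IPEC-1 in blue, IPEC-J2 in orange, a marker per replicate and a black bar at the mean of 3 arrays. The dotted line is the floor at 4. FH, MDH1 and PC stand about 1 unit lower in IPEC-J2, while SDHD, IDH3B and 1 probe set of SDHB stand about 0.5 higher.

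Of the enzymes that take up pyruvate, PC was lower in IPEC-J2 and PDHB did not pass among the probe sets. PC, pyruvate carboxylase, makes oxaloacetate from pyruvate and so refills the cycle. Its signal was 8.16, 7.71 and 7.88 on the IPEC-1 arrays and 6.61, 7.10 and 7.11 on the IPEC-J2 arrays, in the order of the replicates. Every IPEC-J2 array thus lay below every IPEC-1 array, with the dimmer replicate 1 lowest. The difference was -0.98 (95% interval -1.49 to -0.46, adjusted p = 0.0284), a 1.97-fold lower signal. Its IPEC-J2 mean of 6.94 lies under 7.78, the 95th percentile of signals that appear on only 1 array of that line. Against this level it was 1.1-fold lower. Its call held without IPEC-J2 replicate 1 (0.0435) and ended without any other 1 array (0.0517 to 0.0807), without the filter (0.0556) and with the methods' test after Benjamini-Hochberg adjustment (0.0533).

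PDHB, the beta subunit of the first enzyme of the pyruvate dehydrogenase complex, which makes acetyl-CoA, had signals of 11.61, 11.42 and 11.61 in IPEC-1 against 10.89, 11.16 and 11.13 in IPEC-J2. The lines did not overlap, and the means were 11.55 ± 0.11 (SD, n = 3) and 11.06 ± 0.15 (SD, n = 3). The difference of -0.49 (95% interval -0.82 to -0.15) had an adjusted p of 0.0590 among the probe sets. With signals of a gene averaged over its probe sets, as in the methods, and tested among 5513 genes, the same signals of PDHB gave 0.0359. That fit has its own moderated error (SE 0.120 against 0.132) as well as its own adjustment. The gene call ended without any 1 array (0.0503 to 0.104). Among the probe sets PDHB passed with the stricter filter (0.0397), quantile normalization (0.0244), 75th percentile centring (0.0401), trend and robust moderation (0.0140) and the culture note as a random block (0.0338). PDHA1, the alpha subunit, looked up after its values were seen, had a difference of -0.40 with overlapping arrays (adjusted p = 0.182 among the genes).

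Of the isocitrate dehydrogenases, the NADP-dependent mitochondrial IDH2 was lower and IDH3B, a regulatory subunit of the NAD-dependent enzyme of the cycle, was higher in IPEC-J2. IDH2 had signals of 11.36, 11.40 and 11.69 in IPEC-1 against 10.88, 10.76 and 10.78 in IPEC-J2. The IPEC-J2 arrays lay close together below all IPEC-1 arrays, with a difference of -0.68 (95% interval -1.01 to -0.34, adjusted p = 0.0247), or 1.60-fold lower. IDH3B had signals of 9.08, 9.08 and 8.92 in IPEC-1 against 9.63, 9.57 and 9.37 in IPEC-J2. Here all IPEC-J2 arrays lay above all IPEC-1 arrays, with a difference of 0.50 (95% interval 0.18 to 0.81, adjusted p = 0.0490), or 1.41-fold higher. On the same arrays the change of IDH3B exceeded that of IDH2 by 1.17 on the log2 scale (0.87 in culture note A and 1.07 in note B, which are explained below), a measure that does not depend on the centring of the arrays. This pair and those below were chosen after the values were seen and carry no test. The other subunits of the NAD-dependent enzyme, IDH3A and IDH3G, had differences of -0.17 and 0.09 with overlapping arrays and did not pass (adjusted p = 0.565 and 0.522 among the genes). The IDH2 call ended without IPEC-1 replicate 2 (0.0539) or 3 (0.0564) or IPEC-J2 replicate 2 (0.0743) or 3 (0.0894), and the IDH3B call without any 1 array (0.0802 to 0.131).

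Among the subunits of succinate dehydrogenase, SDHA was lower in IPEC-J2 by 1 of its 2 probe sets, SDHB was higher by 1 of its 2, and SDHD was higher. SDHA is the flavoprotein that oxidises succinate, SDHB carries the iron-sulfur centres, and SDHC and SDHD anchor the complex in the inner membrane and bind ubiquinone. The probe sets of SDHA and SDHB are told apart here by the last part of their identifiers. SDHA, by its A1 probe set, had signals of 10.61, 10.60 and 10.55 in IPEC-1 against 10.03, 10.02 and 9.97 in IPEC-J2. The arrays of each line lay close together (SD 0.03 in both, n = 3) and did not overlap, and the difference was -0.58 (95% interval -0.83 to -0.33, adjusted p = 0.0156), a 1.49-fold lower signal. The other SDHA probe set, S1, had 8.62, 8.16 and 8.72 in IPEC-1 against 7.52, 8.33 and 7.84 in IPEC-J2. Its difference of -0.60 was of like size, but its arrays overlapped and it did not pass (95% interval -1.28 to 0.07, adjusted p = 0.177).

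SDHB, by its S1 probe set, had signals of 10.35, 10.16 and 10.17 in IPEC-1 against 10.76, 10.78 and 10.78 in IPEC-J2. The lines did not overlap, and the difference was 0.55 (95% interval 0.27 to 0.82, adjusted p = 0.0252), a 1.46-fold higher signal. The other SDHB probe set, S2, had 9.43, 9.41 and 9.71 in IPEC-1 against 9.31, 9.53 and 9.79 in IPEC-J2. Its arrays overlapped, with a difference of 0.03 (95% interval -0.41 to 0.46, adjusted p = 0.939), so the probe sets of SDHB disagree. The difference of the first exceeded that of the second by 0.52, by 0.70 in culture note B and by 0.07 in note A. With both averaged, SDHB had a difference of 0.29 (95% interval 0.02 to 0.55) and did not pass among the genes (adjusted p = 0.109). With the brightest probe set of each gene in place of the average, here S1, SDHB passed (limma adjusted p = 0.00989). SDHD had signals of 11.44, 11.30 and 11.36 in IPEC-1 against 11.83, 11.88 and 11.88 in IPEC-J2. All IPEC-J2 arrays lay above all IPEC-1 arrays, with a difference of 0.50 (95% interval 0.24 to 0.76, adjusted p = 0.0275), or 1.41-fold higher.

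SDHC, the other anchor subunit, is no member and was looked up after the values were seen. Its signals were 9.80, 10.22 and 9.92 in IPEC-1 against 9.85, 9.49 and 9.45 in IPEC-J2, a difference of -0.38 with overlapping arrays (95% interval -0.81 to 0.04, adjusted p = 0.157 among the genes). Compared on the same arrays, the change of SDHD exceeded that of SDHA (A1) by 1.08 on the log2 scale, with 1.08 in note A and 1.1 in note B. The change of SDHB (S1) exceeded that of SDHA by 1.13, with 1.07 and 1.17 within the notes, and that of SDHD exceeded that of SDHC by 0.88. The SDHA call ended without IPEC-J2 replicate 3 (0.0697), and the SDHB call without IPEC-1 replicate 2 (0.0659) or 3 (0.0780) or IPEC-J2 replicate 2 (0.0717) or 3 (0.0916). The SDHD call held without IPEC-J2 replicate 1 (0.0400) and ended without any other 1 array, at up to 0.101.

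**Figure D2:**
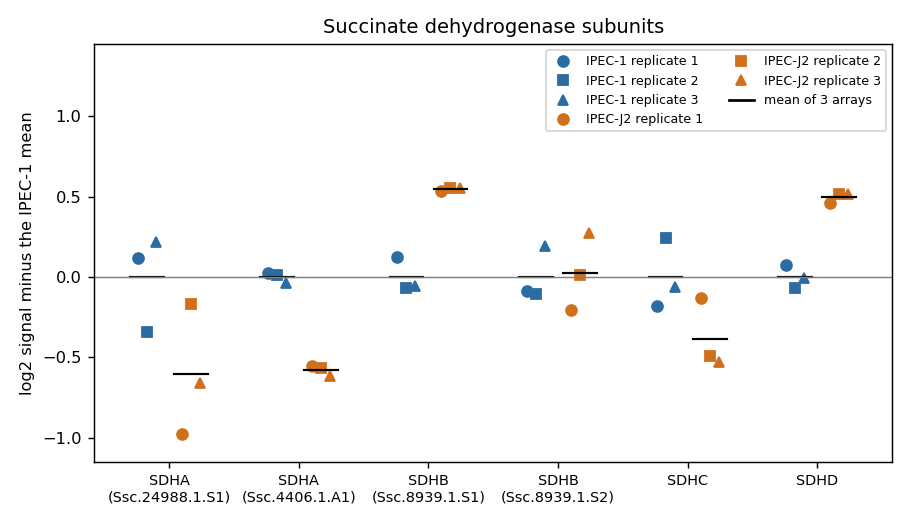
Log2 signal minus the IPEC-1 mean (vertical axis) for the probe sets of the succinate dehydrogenase subunits, with a marker per array, IPEC-1 in blue, IPEC-J2 in orange and black bars at the mean of 3 arrays. SDHA (A1) lies 0.58 lower, SDHD 0.50 and 1 probe set of SDHB 0.55 higher in IPEC-J2, while the other SDHB probe set differs by 0.03.

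FH and MDH1 were lower in IPEC-J2, and FH had the largest difference among the members. FH, fumarase, had signals of 10.84, 10.53 and 10.87 in IPEC-1 against 9.65, 9.69 and 9.84 in IPEC-J2. All IPEC-J2 arrays lay below all IPEC-1 arrays, and FH was 2.03-fold lower (difference -1.02, 95% interval -1.38 to -0.66, adjusted p = 0.00865). Its size exceeded that of 79.9% of all probe sets in the fit. FH stayed called without any 1 array (0.0104 to 0.0342), which no other member probe set did.

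MDH1, the cytosolic malate dehydrogenase, takes part in the shuttle that carries reducing equivalents into mitochondria. It had signals of 12.14, 12.78 and 12.34 in IPEC-1 against 11.54, 11.40 and 11.40 in IPEC-J2. IPEC-1 replicate 2 was highest and the IPEC-J2 arrays lay close together below, with a difference of -0.97 (95% interval -1.46 to -0.49, adjusted p = 0.0242), or 1.96-fold lower. The MDH1 call ended without IPEC-1 replicate 3 (0.0667) or IPEC-J2 replicate 2 (0.0741) or 3 (0.0862). MDH2, the mitochondrial malate dehydrogenase of the cycle itself, was higher in IPEC-J2 by 0.56 (95% interval 0.19 to 0.93, adjusted p = 0.0441 among the genes), or 1.48-fold. Its signals were 10.32, 10.14 and 9.82 in IPEC-1 against 10.70, 10.65 and 10.62 in IPEC-J2. On the same arrays the change of MDH2 exceeded that of MDH1 by 1.54 (1.04 within note A and 1.80 within note B). The MDH2 call held without IPEC-1 replicate 1 (0.0370) and ended without any other 1 array, at up to 0.116.

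Averaged per gene, 6 of the 9 members were lower (PDHB, PC, IDH2, SDHA, FH and MDH1), 2 were higher (IDH3B and SDHD) and SDHB did not pass, where 25.8% of 5513 genes were called, 13.8% lower and 12.0% higher. Besides PDHB, the gene call of IDH3B ended without any 1 array except IPEC-J2 replicate 3 (up to 0.0832), and that of SDHA without any 1 except IPEC-1 replicate 2 and IPEC-J2 replicate 2 (up to 0.115). The gene calls of PC, IDH2, MDH1 and SDHD also ended without IPEC-J2 replicate 3 (0.0596 to 0.0622 for the latter 3), that of MDH1 without IPEC-J2 replicate 2 and that of PC without IPEC-1 replicate 1 or 3. The arrays of the lines did not overlap in 9 of the 9, where this held for 47.5% of all genes. Of the other enzymes of the cycle, 13 of 15 listed were measured, and of these 2 were higher, 1 was lower and 10 did not pass, with a median difference of 0.09 beside -0.05 over all genes. OGDH, the first subunit of the 2-oxoglutarate dehydrogenase complex, had signals of 8.61, 8.99 and 8.81 in IPEC-1 against 9.57, 9.73 and 9.25 in IPEC-J2, without overlap, and was 1.64-fold higher (difference 0.71, adjusted p = 0.0331). SUCLG2, the GTP-specific subunit of succinyl-CoA synthetase, was 1.46-fold lower (difference -0.55, adjusted p = 0.0490), and MDH2 was the other higher gene. CS, citrate synthase, looked up after its values were seen, had a difference of 0.28 with overlapping arrays (95% interval -0.04 to 0.59, adjusted p = 0.167). The call of OGDH ended without any 1 array except IPEC-J2 replicate 3 (up to 0.0909), and that of SUCLG2 without any 1 except IPEC-1 replicate 2 (up to 0.134). Calls of OGDH, MDH2 and SUCLG2 also ended without the filter (0.0527, 0.0596 and 0.0664) and with the methods' test after Benjamini-Hochberg adjustment (0.0625, 0.0694 and 0.0762), and that of SUCLG2 with 75th percentile centring (0.0690).

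For pyruvate entry and its control, 9 of 15 listed genes were measured, 1 of them higher, 0 lower and 8 not called. The higher gene, MPC2, is a subunit of the carrier that brings pyruvate into mitochondria. It had signals of 11.03, 10.85 and 11.02 in IPEC-1 against 11.73, 11.64 and 11.83 in IPEC-J2. MPC2 was thus 1.70-fold higher without overlap (difference 0.77, 95% interval 0.51 to 1.03, adjusted p = 0.00604) and stayed called without any 1 array (up to 0.0322). MPC1, the other subunit of the carrier, looked up after its values were seen, did not pass. Its difference was -0.24 with overlapping arrays (adjusted p = 0.345 among the genes). Among the genes that link the cycle to other pathways, 10 of 19 were measured and 2 were higher, both malic enzymes, which make pyruvate from malate. PCK1, OXCT1 and GPT, all not called, were at the floor on 4, 2 and 1 of the 6 arrays. ME2, the mitochondrial NAD-dependent form, had signals of 8.33, 8.31 and 8.84 in IPEC-1 against 10.30, 11.10 and 10.29 in IPEC-J2 and was 4.20-fold higher (difference 2.07, 95% interval 1.36 to 2.78, adjusted p = 0.00618). ME1, the cytosolic NADP-dependent form, was 2.47-fold higher (difference 1.30, adjusted p = 0.00683), and its 2 probe sets were averaged. Both stayed called without any 1 array (up to 0.0269 for ME2 and 0.0342 for ME1). SDHAF2, the assembly factor that attaches the flavin to SDHA and the 1 measured of 4 listed, did not pass (difference 0.77, 95% interval -0.55 to 2.08, adjusted p = 0.335). Its IPEC-J2 arrays lay above those of IPEC-1, with replicate 2 far above the others.

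**Figure D3:**
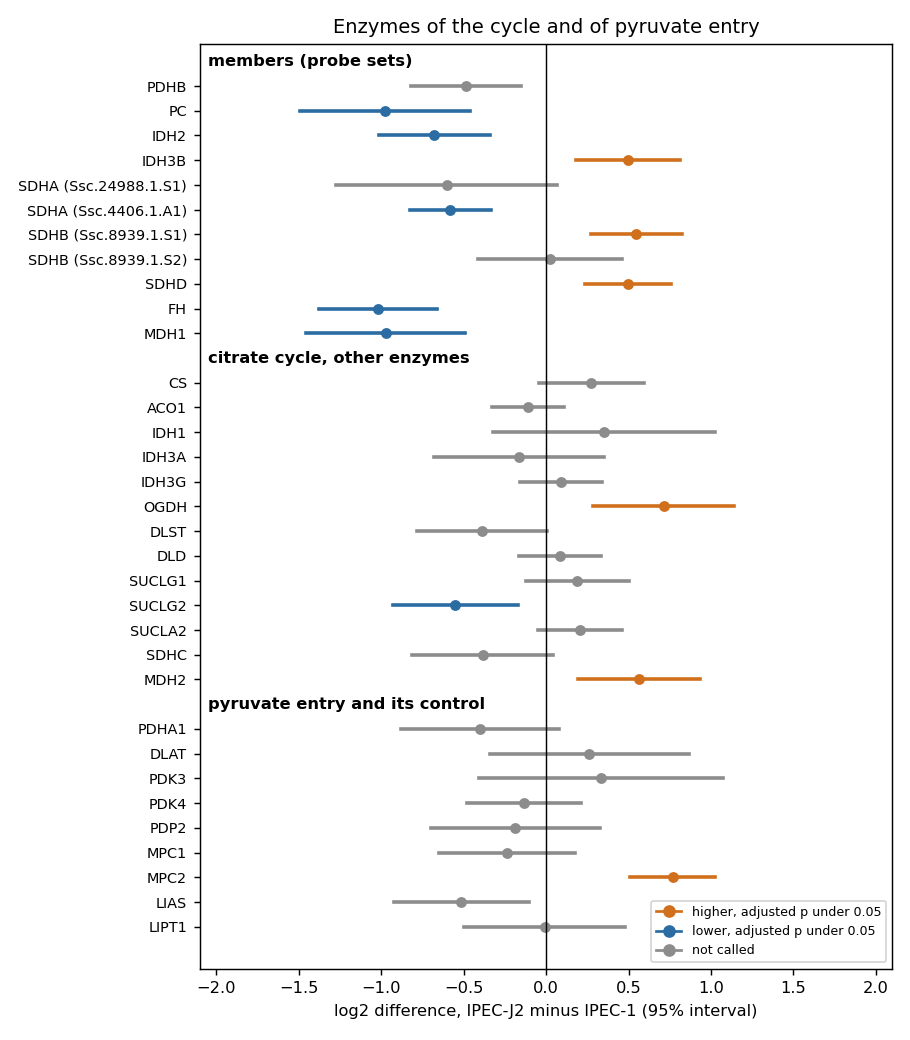
Log2 difference of IPEC-J2 minus IPEC-1 (horizontal axis) with its 95% interval from limma for the 11 member probe sets and, averaged per gene, for the other measured enzymes of the cycle and of pyruvate entry. Orange marks a higher and blue a lower signal at an adjusted p under 0.05 and grey the rest, so that FH at -1.02 and MPC2 at 0.77 lie at opposite sides of 0.

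The sample descriptions hold a culture note, which some arrays of the 2 lines share. Note A stands on replicate 1 of IPEC-1 and replicate 3 of IPEC-J2, and note B on replicate 2 of IPEC-1 and replicate 1 of IPEC-J2. The remaining arrays share no note. In 10 of the 11 probe sets the 2 notes gave differences of the same sign. For the 9 whose lines do not overlap, any pair of arrays gives that sign. There the agreement adds nothing to the lack of overlap, which held for 41.3% of all probe sets. They were -1 and -0.88 for FH, -0.74 and -1.24 for MDH1, -1.05 and -1.10 for PC and -0.58 and -0.52 for IDH2. For PDHB they were -0.48 and -0.53, and for SDHA -0.64 and -0.57 by A1 and -0.78 and -0.64 by the other probe set. The higher genes had 0.29 and 0.55 for IDH3B, 0.44 and 0.53 for SDHD and 0.43 and 0.60 for SDHB by S1. The exception was the S2 probe set of SDHB with 0.36 and -0.10. Each note holds 1 array of a line, so these values have no error of their own.

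**Figure D4:**
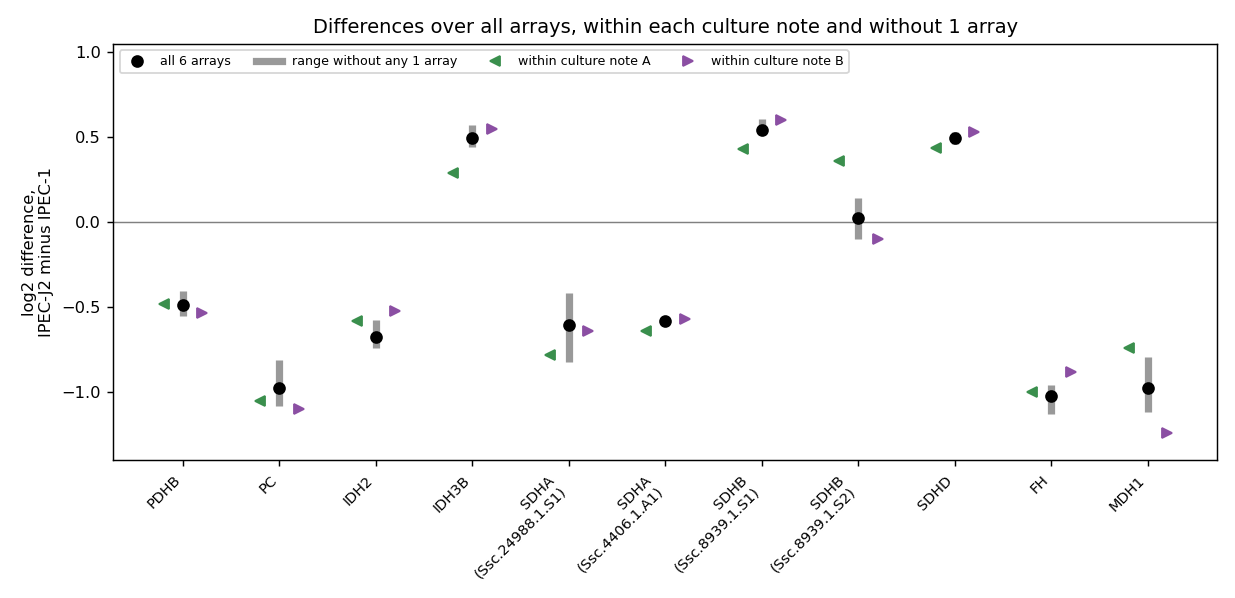
Log2 difference of IPEC-J2 minus IPEC-1 (vertical axis) for each member probe set over all 6 arrays (black), in culture note A (green, pointing left) and in note B (purple, pointing right), and its range when any 1 array is left out (grey bar). Only the S2 probe set of SDHB crosses 0, with 0.36 within note A and -0.10 within note B.

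The counts of calls changed with the array left out. Without IPEC-J2 replicate 3, 0 member probe sets were higher and 1 was lower, without IPEC-J2 replicate 2 or IPEC-1 replicate 3 it was 0 and 2, and without IPEC-1 replicate 2 it was 0 and 3. Without IPEC-1 replicate 1, 1 was higher and 4 lower, and without IPEC-J2 replicate 1, the dimmer array, 2 and 5. Over all probe sets, 1435 were higher and 1660 lower with all arrays, and these counts changed as well. They were 722 and 870 without IPEC-J2 replicate 3, and 865 and 1168 without IPEC-J2 replicate 2. Without IPEC-1 replicate 1, 2 or 3 they were 1057 and 1110, 1056 and 1050, and 1019 and 965. Without IPEC-J2 replicate 1 they were 1569 and 1300. At an unadjusted p under 0.05, between 9 and 10 of the 11 passed in each of these limma fits, and 9 with all arrays. How many of all probe sets passed at that threshold in these fits was not counted. The methods' t-test without adjustment called 3 member probe sets higher and 6 lower, and 2387 and 2934 of all 16322.

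Genes of the routes before and after the cycle are given beside the members, without a test of the difference. Of 14 measured glycolysis enzymes, 1 was higher and 0 lower, with a median difference of -0.01. HK3 and PFKP, both not called, were at the floor on 4 and 5 of the 6 arrays. The higher gene was LDHB, which encodes the heart type subunit of lactate dehydrogenase (difference 1.19, 95% interval 0.84 to 1.55, adjusted p = 0.00385), with signals of 12.12, 11.70 and 11.80 in IPEC-1 against 12.96, 13.12 and 13.12 in IPEC-J2. LDHA, looked up after its values were seen, did not pass (difference 0.88 without overlap, 95% interval -0.19 to 1.96, adjusted p = 0.186). IPEC-1 replicate 2 was low for LDHA, with 11.66 against 13.21 and 13.04 on replicates 1 and 3. It was also the lowest IPEC-1 array for GAPDH, PGK1 and GPI, but not for HK3 or PKM. Of 32 measured subunits of respiratory complex I, 8 were higher and 1 was lower, with a median difference of 0.23. The largest were NDUFC2 (0.84), NDUFA2 (0.74), NDUFB2 (0.72) and NDUFA11 (0.64), and NDUFB5 was lower (-0.45). The members had 2 higher and 6 lower of 9, with a median of -0.59. Over all genes, 12.0% were called higher and 13.8% lower, with a median difference of -0.05. Members and lists were chosen with earlier results of these data known. Calls of NDUFB2 (up to 0.0847), NDUFB5 (up to 0.105) and NDUFA11 (0.0552 without IPEC-J2 replicate 3) ended without some 1 array.

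Over the 6 arrays, the probe sets most like FH among 7560 other named ones were those of CFAP20, CDC5L and SMARCA5, with Pearson correlations of 0.999, 0.998 and 0.996. Those most like SDHB (S1) were PDLIM1, NPM1 and RAP1GDS1, with 0.999, 0.998 and 0.998. With 3 arrays on each side, the difference between the lines enters every such value.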

How the data were processed

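The deposited table holds 24123 probe sets. Per the labels, the authors obtained its log2 values through GCOS 1.1.1 and PLIER, while the methods name another GCOS version with global scaling to a target signal, background correction and normalization. How these steps combine with PLIER in the deposited table is not given in the sources used here, nor is the log base, which was read as log2 from the floor of exactly 4. Detection calls were not used. Precision is limited by having 3 arrays a line. In the labels IPEC-1 and IPEC-J2 carry the same cell bank number, unlike in the methods. Groups and replicate numbers came from the sample titles. No pair of arrays held identical values, and correlations within a line were 0.920 to 0.937 over the probe sets in the fit. All 124 control probe sets were left out. Gene symbols were taken from the annotation of the platform (10069 probe sets with 1 symbol, 198 with several, 13732 unnamed here), and all 9 members matched the RefSeq gene table (Sscrofa11.1) by identifier and symbol. No sequence was used.

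Probe sets above the floor on at least 1 array entered a limma fit (version 3.58.1, R 4.3.3, lmFit and eBayes without a block), because rows without spread change the variance prior (1.44 prior degrees of freedom, 0.334 with them). The fit was tested on simulated data. Named are all members, up to 4 called genes per list and direction, and for the largest called difference in each direction the 3 most correlated named probe sets. Others are named as looked up afterwards. The members and lists were chosen with earlier results of these data known. The alternatives were other filters, normalizations, an offset, other moderation, the methods' t-test, blocks, the brightest probe set and leaving out each array. For the pairs of probe sets on the same arrays they were added after the data had been seen.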

Additional observations from a re-analysis of the deposited data

How the results depend on the processing

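No member probe set called with all arrays changed sign under any setting. The arrays of the lines do not overlap in any of them. Leaving out arrays or splitting them by note therefore could not reverse a sign. With all arrays 3 member probe sets were higher and 5 lower, and 2 and 6 member genes. These counts stayed within 1.5 times under the other filters, quantile normalization, 75th percentile centring and the brightest probe set. The same held for the offset, trend and robust moderation, the random block and the methods' t-test. Single calls changed, some as given above. Among the genes, the SDHA call also ended with the methods' test after Benjamini-Hochberg adjustment (0.0580). SDHB passed among the genes with 75th percentile centring (0.0498) and with the methods' test unadjusted (0.0284). With the replicate number as a block, 0 probe sets were higher and 0 lower (465 and 493 over all), and 0 genes higher and 1 lower (283 and 309 over all). The block leaves 2 residual degrees of freedom, against 4 without it, and 9 member probe sets had an unadjusted p under 0.05. The share of all probe sets under that threshold was not counted. The gene calls of OGDH, MDH2, SUCLG2, ME1, NDUFB2, NDUFA11 and NDUFB5 ended with it as well. The numbers do not pair the cultures, since deviations from the line means correlated by -0.04, -0.12 and 0.02 for numbers 1, 2 and 3, against 0.05 and 0.17 within notes A and B, and not every sample correlated best with its own number. With the culture note as a fixed block over 4 arrays, limma called 0 and 0 probe sets and 0 and 0 genes among the members, and 0 and 0 of all 15548 probe sets but 86 and 89 genes. At an unadjusted p under 0.05, 5 member probe sets and 7 genes passed there, and the share over all was not counted. This fit has 1 residual degree of freedom. Leaving out 1 array gave 0 to 2 higher and 1 to 5 lower member probe sets, 1 higher member gene each time and 1 to 5 lower, and over all probe sets 722 to 1569 higher and 870 to 1300 lower, where all arrays gave 1435 and 1660 (fewest without IPEC-J2 replicate 3). Over all genes it gave 376 to 692 higher and 401 to 618 lower, where all arrays gave 662 and 762. The methods' t-test without adjustment called 2387 and 2934 of all probe sets and 920 and 1154 genes. The S2 probe set of SDHB, not called in any fit, ran from -0.10 to 0.14 when 1 array was left out, with -0.02, -0.03 and -0.10 without IPEC-1 replicate 1, IPEC-1 replicate 2 and IPEC-J2 replicate 3.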
